A study of Mus musculus with 90 samples.

Results

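The effect of chronic social stress on field CA3 of the mouse hippocampus was examined in 18 of the 90 areas of interest (AOIs) of a spatial expression study, namely every AOI placed in CA3. An AOI is a chosen patch of a tissue section from which bound probes are released by light and counted by sequencing (GeoMx Digital Spatial Profiler, mouse Whole Transcriptome Atlas probes). Of the 18 AOIs, 11 came from 6 mice that had gone through chronic social stress (CSS) and 7 came from 4 control (ctrl) mice. Tissue was brain, fixed in formalin, embedded in paraffin and cut into 5 µm sections. The labels sort the AOIs by p16 status into high and low. The CSS mice gave 6 p16 high and 5 p16 low AOIs, and the ctrl mice gave 3 p16 high and 4 p16 low AOIs. CSS mouse 1163 had only its p16 high AOI and ctrl mouse 1182 only its p16 low AOI. Strain, genotype, sex, age, the stress schedule and the basis of the p16 sorting are not stated in the labels.

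CA3 is the hippocampal field whose pyramidal neurons receive the mossy fibres of the dentate gyrus, excite one another through recurrent synapses and project to CA1. It is rich in kainate receptors and carries receptors for stress hormones, and in rodents long stress is known for retraction of the apical dendrites of its neurons. Corticosterone acts there through the mineralocorticoid receptor and the glucocorticoid receptor, which are transcription factors that switch on genes such as Fkbp5, a co-chaperone that in turn dampens the glucocorticoid receptor. p16, a cyclin-dependent kinase inhibitor encoded by Cdkn2a, is a marker of senescent cells, and the title of the series names stress and p16.

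The 19962 genes were read as a signal that has the same median, 22.1, in every AOI, so a signal near or below 22.1 is that of a gene at or under the middle of the range. Recovered probe counts totalled 299597 to 1421580 per CA3 AOI, and 21.5% of CA3 values did not exceed the negative control probe of their AOI. Mean totals per mouse were 598600 ± 233500 counts in CSS mice and 872100 ± 387600 in ctrl mice (SD, n = 6 and 4, exact 2-sided permutation p = 0.257). The ratio of the median gene to that probe averaged 1.60 ± 0.14 in CSS mice and 1.53 ± 0.17 in ctrl mice (SD, n = 6 and 4, exact 2-sided permutation p = 0.457). Intervals on counts would cover counting error only.

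The label was first set against field markers. A list of 14 markers of CA3 pyramidal neurons had a mean log2(signal + 1) of 5.72 to 7.02 in the 18 CA3 AOIs and at most 5.00 in any AOI of CA1, cortex or choroid plexus. All 18 AOIs thus carried the CA3 signature. The lowest level, 5.72, was in the p16 low AOI of ctrl mouse 1175 and the highest, 7.02, in the p16 high AOI of ctrl mouse 1151. Markers of CA1 pyramidal neurons averaged 4.58 to 5.81 in CA3 AOIs, against 7.39 to 8.69 in CA1 AOIs. The highest of these CA3 values was in CSS mouse 1163, where the CA1 transcription factor gene Pou3f1 had a signal of 85.8, against 9.13 to 33.1 in the other CA3 AOIs.

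Among the CA3, CA2 and CA1 lists, markers of CA2, the small field next to CA3, had the widest range between AOIs. Their mean log2(signal + 1) ran from 4.58 to 6.15 in CA3 AOIs. Among the 5 CSS mice with both AOIs, the p16 high AOI exceeded the p16 low AOI by 1.53 in mouse 1157, 1.11 in mouse 1162 and 0.37 in mouse 1169, and lay below it by 0.91 in mouse 1152 and 0.27 in mouse 1170 (log2 units). Among ctrl mice the p16 high AOI was above the p16 low AOI in all 3 that had both, by 1.51 in mouse 1151, 1.30 in mouse 1168 and 0.36 in mouse 1175. The p16 high AOI was thus the higher in 3 of 5 CSS mice and in 3 of 3 ctrl mice, and a difference between the groups in this respect was not tested. In AOIs of many cells, fewer cells of a type and less RNA per cell cannot be told apart.

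**Figure D1:**
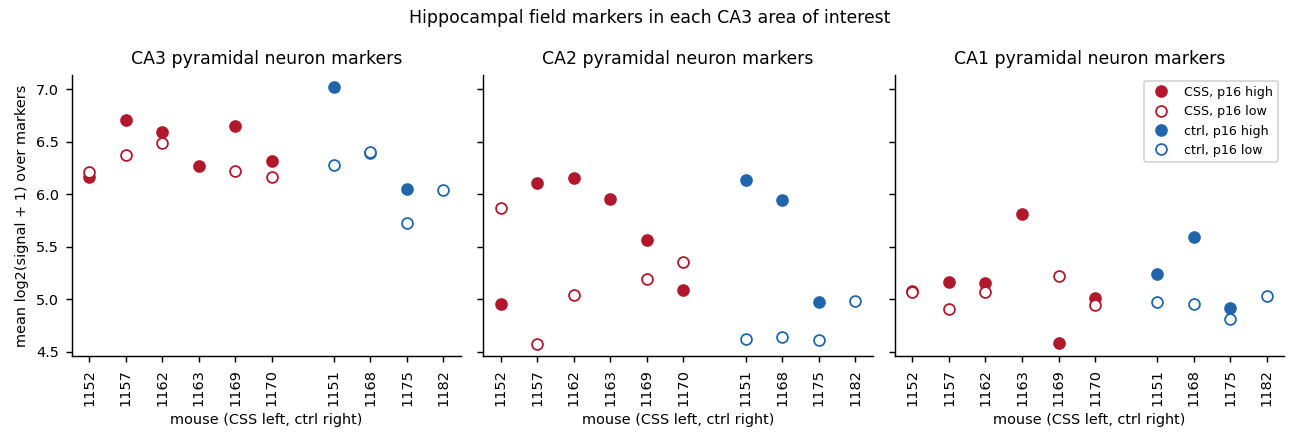
Mean log2(signal + 1) of markers of CA3, CA2 and CA1 pyramidal neurons in each CA3 AOI, with mice along the horizontal axis (6 CSS mice left, 4 ctrl mice right), filled points for p16 high AOIs and open points for p16 low AOIs. CA3 markers sit between 5.72 and 7.02 in every AOI, whereas CA2 markers spread from 4.58 to 6.15.

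For the comparison, each mouse was given 1 value per gene, the mean of its log2(signal + 1) values after removal of the p16 difference, and values are printed below as signal on the original scale. No gene passed the test: 0 of 19962 genes (0%) had a Benjamini-Hochberg adjusted p under 0.05 in limma, and the smallest adjusted p was 0.588, that of Smim22. Each other gene named for CA3 below had a limma adjusted p of at least 0.9998 unless another setting is named. At an unadjusted p under 0.05 there were 582 genes (2.92%), of which 217 (1.09%) were higher and 365 (1.83%) lower in CSS mice. In 35 genes (0.175%) all 6 CSS mice lay above all 4 ctrl mice, and in 77 genes (0.386%) all lay below. Counts recovered from the signal and summed per mouse gave 9 calls with edgeR (0.0451%), 6 higher and 3 lower, and none with DESeq2, where 246 genes had an unadjusted p under 0.05.

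The intervals bounded large changes in signal more than small ones. The median 95% interval reached 0.52 log2 units either side of the estimate in the quartile of genes with the lowest signal and 0.42 in the quartile with the highest. For 19177 genes (96.1%) the whole interval lay within a 2-fold change of signal in either direction. In the lowest quartile the share was 88.7%, but its mean signals, 3.47 to 15.8, were near the negative probe, at 11.8 to 17.2 in CA3 AOIs. There background and the added 1 make fold changes smaller, so a narrow interval does not bound the change in expression. Among the 4991 genes of highest signal, 99.6% had such an interval.

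**Figure D2:**
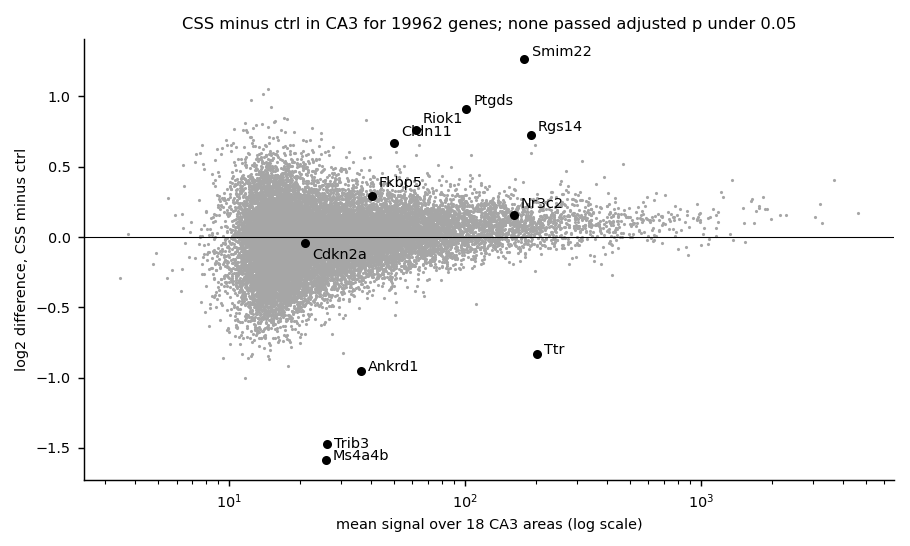
Log2 difference of each of 19962 genes in CA3, CSS minus ctrl (vertical axis), against its mean signal over the 18 CA3 AOIs (horizontal axis, log scale), with 12 genes named. Smim22 at 1.26 and Ms4a4b at -1.58 lie at the edges, and no gene passed an adjusted p under 0.05.

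The highest test statistic among genes above the median signal belonged to Smim22 (chromosome 16, 5007288 to 5008309, GRCm38.p6), which encodes a small membrane protein. Smim22 had a lowest, median and highest signal of 77.6, 209 and 364 in CSS mice, against 86.7, 103, 54.4 and 94.9 in ctrl mice. Thus 5 of the 6 CSS mice lay above every ctrl mouse, and CSS mouse 1152 lay among the ctrl mice. The log2 difference was 1.26 (SE 0.27, 95% interval 0.72 to 1.81, limma adjusted p = 0.588). Its log2 values had an SD of 0.75 in CSS mice and 0.41 in ctrl mice. The SE and interval also draw on other genes and are narrower than these mice alone give. In single AOIs it reached 509 in the p16 high AOI of CSS mouse 1162 and 504 in that of CSS mouse 1170, against a ctrl maximum of 121. Smim22 was the gene most often called under other settings, by edgeR (1.43, adjusted p = 1.545e-05), after quantile normalization (1.15, limma adjusted p = 0.0396) and without CSS mouse 1152 (1.54, limma adjusted p = 0.00183).

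Ptgds (chromosome 2, 25466709 to 25470110) encodes prostaglandin D2 synthase, made in brain by oligodendrocytes, meninges and choroid plexus. It had a lowest, median and highest signal of 73.3, 135 and 142 in CSS mice, against 46.5, 59.1, 72.4 and 84.5 in ctrl mice. The groups overlapped only through CSS mouse 1152. The log2 difference was 0.91 (SE 0.21), and it was 1.45 in p16 high AOIs and 0.48 in p16 low AOIs. Ptgds was called by edgeR (0.81, adjusted p = 0.0466) and after scaling to the 75th percentile (0.90, limma adjusted p = 0.0303). Choroid plexus markers as a list had a median log2 difference of -0.04 over 15 genes, with 7 above 0, and Ttr, the most abundant of them, had -0.83 (SE 0.49), and -0.10 without CSS mouse 1170. Ttr had a lowest, median and highest signal of 8.38, 176 and 403 in CSS mice, against 227, 316, 244 and 113 in ctrl mice.

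The predicted gene Gm11596 had a lowest, median and highest signal of 24.3, 40.4 and 84.4 in CSS mice, against 25.5, 19.2, 26.7 and 20.6 in ctrl mice (log2 difference 0.83, SE 0.23). Its edgeR call (0.92, adjusted p = 0.00452) was shared with Spink8, a Kazal-type protease inhibitor gene (0.81, adjusted p = 0.0466). Efl1, a GTPase gene of ribosome maturation, was the 1 gene of the 15 highest in which the groups did not overlap, as in 0.175% of all genes. Efl1 had a lowest, median and highest signal of 23.3, 29.2 and 38.5 in CSS mice, against 19.3, 20.2, 20.7 and 17.7 in ctrl mice (0.61, SE 0.20). The other 10 of these 15 genes, none of which passed, had log2 differences of 0.56 to 0.77. Without ctrl mouse 1182 the differences of Olfr19 and Ddx49 were 0.27 and 0.35. The 10 were Cldn11, Rgs14 and Olig1, described below, the intracellular cation channel gene Tmem38b, the olfactory receptor genes Olfr1426 and Olfr19, the transferase-like gene Galntl6, the transcription factor gene Usf1, the glutaminase gene Gls2 and the helicase gene Ddx49.

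The 2 lowest differences were about 2 times as large or more with 1 ctrl library as without it. Ms4a4b, a membrane protein gene of T cells (chromosome 19, 11443558 to 11463549), had a lowest, median and highest signal of 5.46, 11.3 and 19.1 in CSS mice, against 16.9, 19.8, 18.4 and 198 in ctrl mice, and Trib3, a pseudokinase gene induced by endoplasmic reticulum stress (chromosome 2, 152337425 to 152344060), had 3.18, 10.1 and 15.3 in CSS mice, against 12.3, 13.2, 16.7 and 213 in ctrl mice. In both genes the high value was that of ctrl mouse 1182. Their mean CA3 signals, 25.8 and 26.0, were above the 21.0 of the median gene, but every other mouse lay below it. The log2 differences were -1.58 (SE 0.39) for Ms4a4b and -1.47 (SE 0.43) for Trib3, and without that mouse they were -0.78 and -0.56. The other 13 of the 15 lowest genes had log2 differences of -0.50 to -0.82.

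Of those 13, Robo3, a receptor gene of axon guidance, had a lowest, median and highest signal of 7.52, 23.8 and 35.8 in CSS mice, against 37.1, 34.9, 35.96 and 43.3 in ctrl mice (-0.82, SE 0.25). The highest CSS mouse exceeded only the lowest ctrl mouse. Slc29a4, which encodes a monoamine transporter of the plasma membrane, had 15.9, 19.0 and 28.8 in CSS mice, against 33.1, 31.2, 31.4 and 27.3 in ctrl mice (-0.62, SE 0.20). The others were Naa80, which acetylates actin, the vitamin transporter gene Slc5a6, the CREB-family transcription factor gene Crem, the lipid hydrolase subunit gene Pafah1b3, the Rab regulator gene Tbc1d20, Snd1, Glt8d2 and the zinc finger genes Zmat4, Rlf, Zscan21 and Zscan25. All 13 overlapped between the groups.

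Further genes called by edgeR alone were also carried by 1 AOI each, and these were singled out after their values were seen. Riok1, an atypical kinase gene, had a signal of 672 in the p16 high AOI of CSS mouse 1163 and at most 33.1 elsewhere. Acad10, an acyl-CoA dehydrogenase family gene, had 267 in the p16 high AOI of CSS mouse 1157 and at most 28.4 elsewhere. Ankrd1, an ankyrin repeat gene, had 444 in the p16 low AOI of ctrl mouse 1182 and at most 20.8 elsewhere. Without those mice the limma log2 differences were 0.06 for Riok1, 0.10 for Acad10 and 0.26 for Ankrd1.

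**Figure D3:**
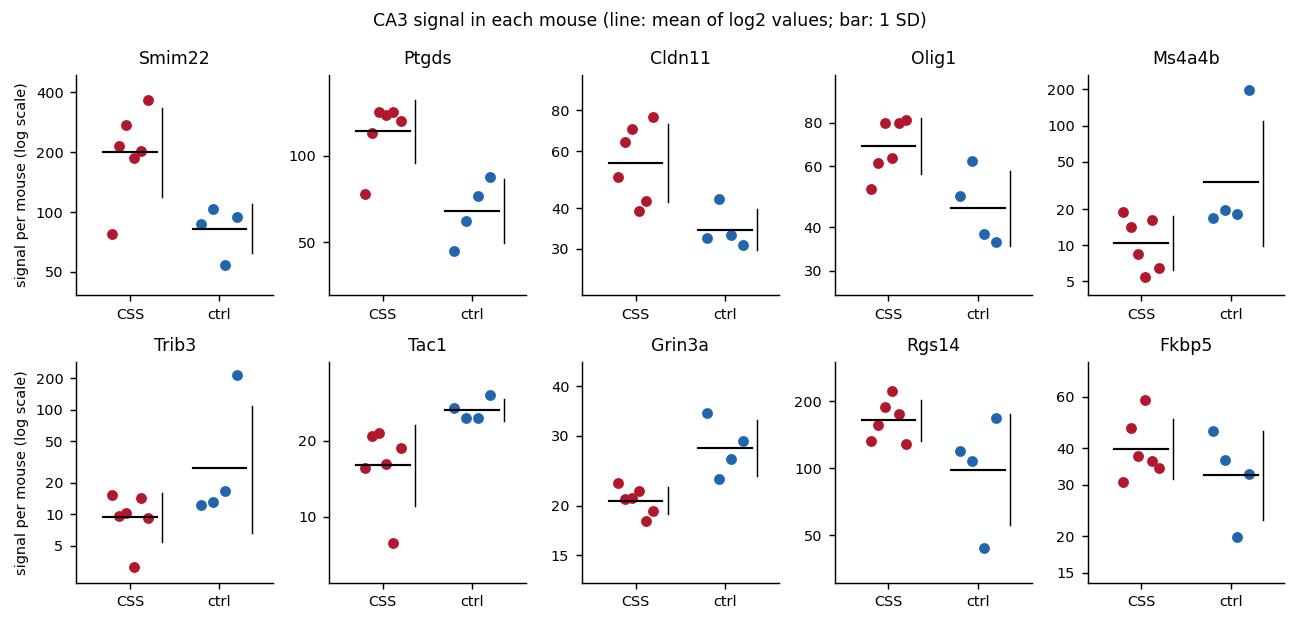
CA3 signal of 10 genes in each mouse (vertical axes, log scale), with 6 CSS mice left of 4 ctrl mice, a line at the mean of the log2 values and a bar of 1 SD. Smim22 and Ptgds overlap through CSS mouse 1152, and Ms4a4b and Trib3 have 1 ctrl mouse near 200. The Tac1 and Grin3a groups do not overlap, as in 0.386% of all genes.

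Oligodendrocyte and myelin genes were the marker list with most genes of small p. None of 20 was called, 15 had a value above 0, and 5 had an unadjusted p under 0.05 and were higher in CSS mice, against 1.09% of all genes. The median log2 difference was 0.18, against 0.00 over all genes, and it ran from 0.11 without CSS mouse 1162 to 0.24 without CSS mouse 1163 when mice were left out in turn. With the p16 difference removed, the mean log2(signal + 1) of the list was lowest at 5.17, median 5.25 and highest 5.50 in CSS mice. In ctrl mice it was 5.13, 5.12, 5.10 and 4.97, so the groups did not overlap in these values. The separation depended on that removal. Before it, the only AOI of CSS mouse 1163 had 5.10, below the 5.13 of ctrl mouse 1151. How many other lists separated was not counted.

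Cldn11, the tight junction protein of myelin (chromosome 3, 31149920 to 31164326), had a lowest, median and highest signal of 39.3, 57.0 and 76.5 in CSS mice, against 32.3, 42.7, 33.0 and 30.8 in ctrl mice (log2 difference 0.67, SE 0.21). Here 4 of the 6 CSS mice lay above every ctrl mouse. Olig1, a lineage transcription factor (chromosome 16, 91269769 to 91271939), had 51.6, 71.4 and 81.6 in CSS mice, against 49.4, 62.1, 38.2 and 36.3 in ctrl mice (0.58, SE 0.20). Cnp, a phosphodiesterase of myelin, had a log2 difference of 0.40 (SE 0.19) and was the 1 of 20 members whose groups did not overlap, against 0.175% of all genes. The related factor Olig2 had a log2 difference of 0.44, and 0.27 without ctrl mouse 1182, and the iron carrier gene Trf 0.45. Mbp, which encodes myelin basic protein, had a log2 difference of 0.10, and Fa2h, which makes myelin lipids, had -0.26. Among 10 genes of oligodendrocyte precursors the median was -0.02, and Enpp6, found in newly forming oligodendrocytes, had a lowest, median and highest signal of 12.9, 18.6 and 21.7 in CSS mice, against 11.5, 12.4, 12.4 and 11.4 in ctrl mice (0.53, SE 0.22). The Enpp6 groups did not overlap, with all CSS mice higher, as in 0.175% of all genes. Its mean signal of 15.98 lay within the range of the negative probe, 11.8 to 17.2 in CA3 AOIs, so background limits this separation.

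Of 16 endothelial genes 14 had a value above 0, with a median of 0.17, and none was called. That median was 0.11 without CSS mouse 1162 and also without ctrl mouse 1182. The angiopoietin receptor gene Tek had a log2 difference of 0.44 (SE 0.21) and the glucose transporter gene Slc2a1 0.39 (SE 0.20). The mean signal of Tek, 18.5, was below the common median. Of 18 microglial genes 14 had a value above 0, with a median of 0.08, among them the complement gene C1qb at 0.34, and 0.19 without ctrl mouse 1182, and the purine receptor gene P2ry12 at 0.31, while Aif1 had -0.37. Astrocyte genes split, 12 of 20 above 0 with a median of 0.02. The glutamate transporter gene Slc1a2 had -0.27 and S100b 0.30. Kcnj10, the inward rectifier of glia, which stood in the potassium channel list, had a lowest, median and highest signal of 33.1, 34.3 and 36.1 in CSS mice, against 28.5, 31.0, 24.7 and 24.4 in ctrl mice (0.34, SE 0.19). The Kcnj10 groups did not overlap, with all CSS mice higher, as in 0.175% of all genes. No gene of the endothelial, microglial and astrocyte lists passed the test, nor of the 14 mural and meningeal genes, whose median was 0.07.

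Among genes of the hippocampal fields, the 8 CA2 markers had a median log2 difference of 0.23 with 6 above 0, the highest median of the 40 lists. Rgs14, which holds back plasticity in CA2 neurons (chromosome 13, 55369732 to 55384687), had a lowest, median and highest signal of 129, 166 and 222 in CSS mice, against 119, 107, 43.6 and 168 in ctrl mice (0.73, SE 0.25). Ctrl mouse 1175 was the lowest by far, and without it the difference was 0.26. Pcp4, a calmodulin-binding peptide gene, had 0.54, and -0.02 without that mouse. The list median without ctrl mouse 1175 was 0.02.

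The other field lists had medians closer to 0. CA3 markers had a median of 0.06 with 8 of 14 above 0, and it was -0.08 without ctrl mouse 1175. The highest was Amigo2, an adhesion gene, at 0.48 (SE 0.24), and 0.05 without ctrl mouse 1175, while Cpne4 had 0.09, Bok -0.02 and Nectin3, a nectin of CA3 synapses, -0.03. CA1 markers had a median of 0.01, and the highest of them was Pou3f1 at 0.69 (SE 0.27), and 0.39 without CSS mouse 1163. The median was -0.07 for dentate granule markers and -0.16 for neocortical layer markers. Of 6 hilar mossy cell markers 5 were above 0, with a median of 0.17, led by Calcrl, a peptide hormone receptor gene (0.58, SE 0.27). The mean signal of Calcrl, 14.3, was near the negative probe. The level of this list barely differed between subregions. Its median log2(signal + 1) was 4.57 in CA3, 4.51 in CA1, 4.49 in choroid plexus, 4.44 in motor and 4.43 in somatosensory cortex. The mossy cell median was 0.06 without ctrl mouse 1182, and Calcrl was 0.15 without ctrl mouse 1151. No gene of these lists was called.

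In p16 low AOIs alone, 1 gene was called, Rgs14 (log2 difference 1.64, limma adjusted p = 0.0403). Its signal was 262, 49.9, 91.9, 141 and 227 in the p16 low AOIs of 5 CSS mice, against 30.5, 34.2, 27.9 and 99.3 in those of 4 ctrl mice. The p16 low AOI of ctrl mouse 1182 lay above those of 2 CSS mice. In p16 high AOIs Rgs14 was 66.2, 488, 380, 375, 218 and 72.5 in CSS mice, against 457, 332 and 67.7 in ctrl mice, a difference of -0.09. Other genes, picked after their values were seen and not called in either, were Pcp4, at 1.22 in p16 low and -0.12 in p16 high AOIs, Amigo2, at 1.17 and -0.20, Spink8, at 1.46 and -0.09, and Igfbp4, an IGF-binding protein gene, at 1.09 and -0.20. The difference between p16 high and p16 low AOIs was itself not tested. The part of CA2 tissue in these values was not tested. In p16 high AOIs alone no gene was called with limma, and 376 had an unadjusted p under 0.05.

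Stress hormone genes did not pass the test. Nr3c1, the glucocorticoid receptor, had a lowest, median and highest signal of 47.2, 72.9 and 85.9 in CSS mice, against 91.8, 87.3, 50.1 and 52.9 in ctrl mice (log2 difference -0.02, SE 0.21, 95% interval -0.45 to 0.41). Nr3c2, the mineralocorticoid receptor, had 125, 158 and 199 in CSS mice, against 185, 166, 82.97 and 154 in ctrl mice (0.16, SE 0.22, 95% interval -0.29 to 0.61). Both sets of values overlapped widely. Fkbp5 (chromosome 17, 28398753 to 28486149) had 30.6, 36.9 and 58.6 in CSS mice, against 45.7, 36.7, 19.8 and 32.7 in ctrl mice (0.29, SE 0.22, 95% interval -0.14 to 0.72). Without ctrl mouse 1175, the lowest, the Fkbp5 difference was 0.00.

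Over the 30 genes of the hormone receptors and their known targets, 17 had a value above 0 with a median of 0.06, and none was called. Ddit4, an inhibitor of mTOR signalling, had a lowest, median and highest signal of 68.2, 73.5 and 77.4 in CSS mice, against 64.6, 64.4, 44.4 and 53.7 in ctrl mice (0.38, SE 0.19). Its groups did not overlap, as in 0.175% of all genes, and it was the 1 of 30 members that did so and was higher. The zinc finger gene Zbtb16 had 0.33, and 0.11 without ctrl mouse 1175, and the kinase gene Sgk1 0.23. Plin4, a lipid droplet coat gene that responds to glucocorticoids, had -0.53 (SE 0.25), at a mean signal of 13.1 that is below the common median. The clock genes, several of them hormone-responsive, had a median of -0.03 over 18 genes.

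**Figure D4:**
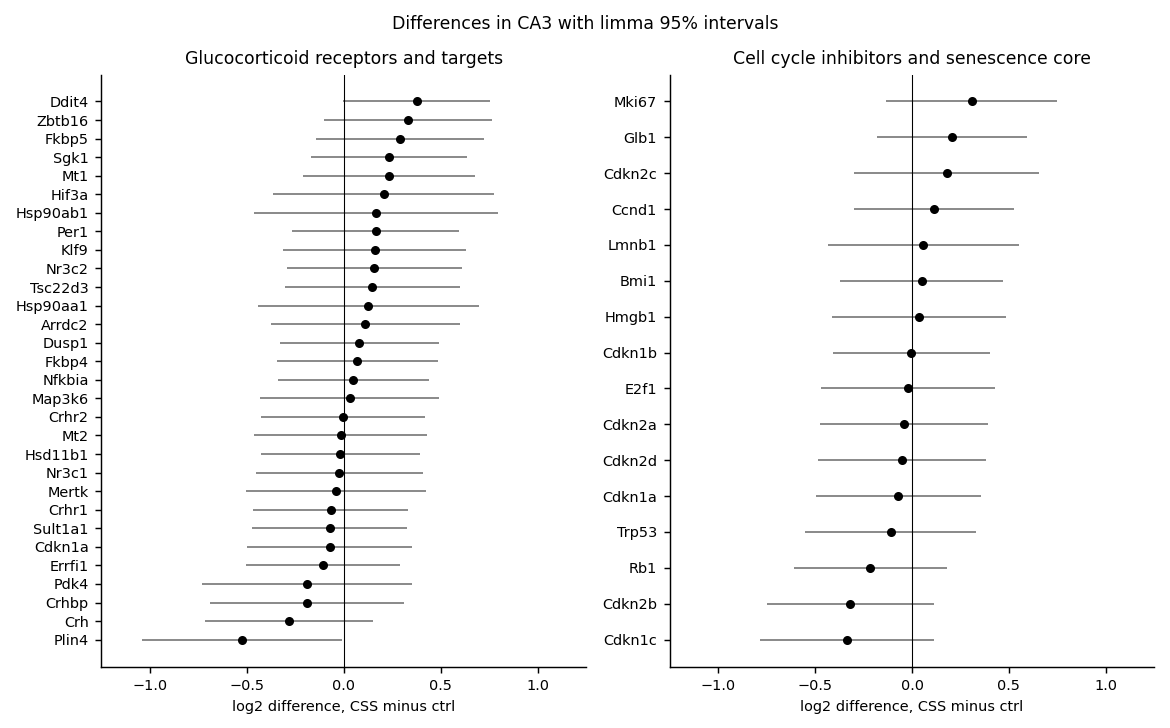
Log2 differences in CA3, CSS minus ctrl, with limma 95% intervals (horizontal axes) for 30 glucocorticoid receptor and target genes and 16 cell cycle inhibitor and senescence genes. All intervals but that of Plin4 include 0, and Cdkn2a lies at -0.04.

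Immediate early genes, which neurons switch on with activity, had a median of 0.04 with 15 of 25 above 0, and none was called. Ier5 had a log2 difference of 0.42 (SE 0.21) and the phosphatase gene Dusp5 0.41 (SE 0.21), while Npas4, a transcription factor of excitatory input, had -0.34 (SE 0.21). Without ctrl mouse 1182 Ier5 was 0.27, without ctrl mouse 1175 Dusp5 was 0.11, and without ctrl mouse 1151 Npas4 was -0.17. Fos had 0.10, Arc 0.14 and Bdnf -0.03. The 9 genes of the neurotrophin system had a median of 0.05.

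Cdkn2a (chromosome 4, 89274473 to 89294619) had a lowest, median and highest signal of 12.6, 22.9 and 25.7 in CSS mice, against 16.4, 22.2, 25.6 and 21.1 in ctrl mice (log2 difference -0.04, SE 0.21, 95% interval -0.47 to 0.39). Its mean signal of 21.1 was below the common median, though just above the 21.0 of the median gene. Cdkn1a, the p21 inhibitor, had 16.9, 28.5 and 42.3 in CSS mice, against 28.0, 28.2, 29.6 and 28.8 in ctrl mice (-0.07, SE 0.21, 95% interval -0.50 to 0.35). CSS mice lay on both sides of the narrow ctrl range. Over the 16 inhibitors and senescence genes 7 had a value above 0 with a median of -0.01, from Cdkn1c at -0.34 and Cdkn2b, the p15 inhibitor, at -0.32 to Mki67, a proliferation gene, at 0.31, and none was called.

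Of 33 secreted factors of senescent cells 14 had a value above 0, with a median of -0.06, and none was called. Igfbp4 had 0.61 (SE 0.23), the growth factor gene Hgf 0.55 (SE 0.26) and the cytokine gene Csf2 -0.54 (SE 0.26). Of these, Hgf and Csf2 had a mean signal below the common median, and Hgf was 0.22 without ctrl mouse 1182 and Csf2 -0.26 without CSS mouse 1163. Among 23 p53 pathway genes the median was -0.02. Trp53inp1, a p53-induced nuclear protein gene, had a lowest, median and highest signal of 9.16, 11.9 and 16.3 in CSS mice, against 21.8, 15.5, 17.4 and 25.9 in ctrl mice (-0.66, SE 0.23), and the apoptosis gene Bbc3 had 0.60 (SE 0.23). The mean signals of Trp53inp1 and Bbc3, 15.7 and 17.1, were near the negative probe. Interferon and antigen presentation genes had a median of -0.01 over 26 genes.

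Lists of abundant neuronal and housekeeping genes sat above 0 together and turned with 1 ctrl mouse. Of 54 genes of oxidative phosphorylation 45 had a value above 0 with a median of 0.11, of 73 ribosomal protein genes 53 with 0.06, of 30 genes of the presynaptic vesicle cycle 23 with 0.12, of 26 postsynaptic density genes 20 with 0.09, and of 17 cytoskeletal genes 15 with 0.13. No member was called. The quartile of genes with the highest signal, in which most of these lie, had a median of 0.06 with 67.3% of genes above 0. Without ctrl mouse 1175, which had the lowest signal over the negative probe, that share was 18.1%, and without ctrl mouse 1151, which had the highest signal at the 75th percentile, it was 90.9%. The oxidative phosphorylation median was -0.14 without mouse 1175 and 0.30 without mouse 1151, and the presynaptic median was -0.12 and 0.31. After quantile normalization 49.4% of the highest quartile lay above 0.

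**Figure D5:**
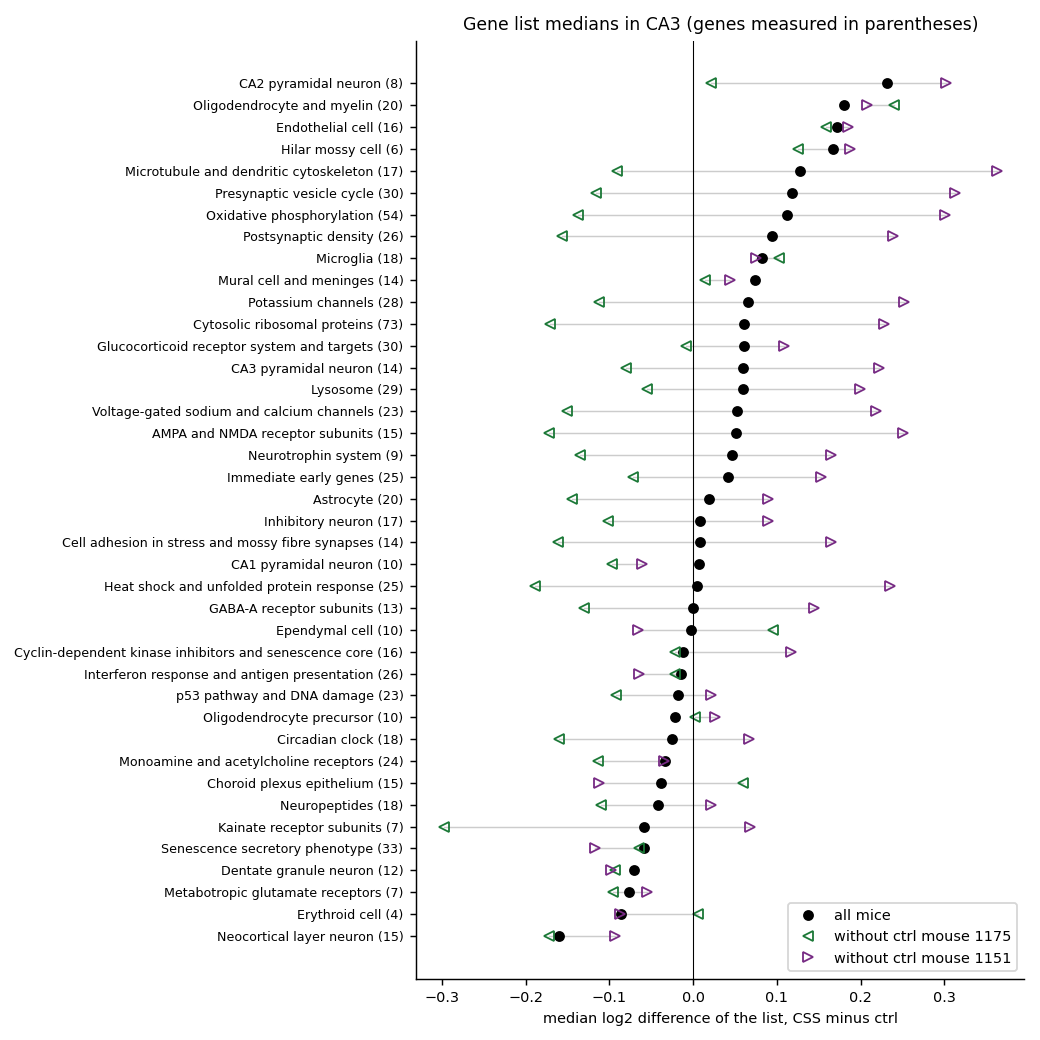
Median log2 difference, CSS minus ctrl, of each of 40 gene lists in CA3 (horizontal axis) with all mice, without ctrl mouse 1175 and without ctrl mouse 1151, the number of measured genes in parentheses. The oxidative phosphorylation median runs from -0.14 without mouse 1175 to 0.30 without mouse 1151, and the oligodendrocyte median is 0.24 without mouse 1175 and 0.21 without mouse 1151.

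The median of 15 AMPA and NMDA receptor subunits was 0.05, and it was -0.17 without ctrl mouse 1175 and 0.25 without ctrl mouse 1151. The AMPA receptor genes Gria1 and Gria2 had log2 differences of 0.05 and 0.01, and the NMDA receptor gene Grin1 had 0.10. Grin3a, a subunit that lowers calcium entry through NMDA receptors, had a lowest, median and highest signal of 18.2, 20.8 and 22.8 in CSS mice, against 34.2, 23.3, 26.2 and 29.1 in ctrl mice (-0.42, SE 0.19). All 6 CSS mice were lower than all 4 ctrl mice, as in 0.386% of all genes, and the difference was -0.28 without ctrl mouse 1151. Grin2d had 0.42 (SE 0.22). Of 7 kainate receptor and auxiliary genes 2 were above 0 with a median of -0.06, which was -0.30 without ctrl mouse 1175 and 0.07 without ctrl mouse 1151, among them Grik4, the subunit typical of CA3, at -0.13 and Grik2 at -0.21. GABA-A receptor genes had a median of 0.00, metabotropic glutamate receptor genes -0.08, and no receptor gene was called.

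Genes of inhibitory neurons had a median of 0.01 over 17 genes. Tac1, the substance P precursor, had a lowest, median and highest signal of 7.87, 17.4 and 21.4 in CSS mice, against 26.8, 24.5, 24.6 and 30.3 in ctrl mice (-0.69, SE 0.22). The Tac1 groups did not overlap, with all CSS mice lower, as in 0.386% of all genes. Its mean signal of 20.95 was below the common median. The transcription factor gene Dlx6 had -0.62 (SE 0.22) at a mean signal of 19.9, also below that median. The somatostatin gene Sst had -0.48 (SE 0.32), and -0.15 without ctrl mouse 1151. The GABA synthesis genes Gad1 and Gad2 had 0.18 and 0.04, and Pvalb had 0.29. The 18 neuropeptide genes, which share Tac1 and Sst with that list, had a median of -0.04.

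Ion channels and other receptors gave few small p values. Of 28 potassium channel genes 21 were above 0 with a median of 0.06, and of 23 sodium and calcium channel genes 16 were above 0 with a median of 0.05, the T-type calcium channel gene Cacna1g having -0.45 (SE 0.21). Htr2c, a serotonin receptor, had -0.60 (SE 0.26) at a mean signal of 16.4. Among 29 lysosomal genes, 23 of them above 0 with a median of 0.06, Npc1, which exports cholesterol, had the highest value, 0.60 (SE 0.24), and 0.30 without ctrl mouse 1182. Among 25 heat shock and unfolded protein genes the median was 0.00, with Hspa5, the main chaperone of the endoplasmic reticulum, at 0.30 (SE 0.19), and 0.17 without ctrl mouse 1175.

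The effect of CSS in CA3 was then compared with its effect in CA1 and in cortex, as the difference between subregions within each mouse. No gene was called against CA1 (0 of 19962, 0%, limma, with 750 or 3.76% at an unadjusted p under 0.05) or against the mean of motor and somatosensory cortex (0%, with 833 or 4.17%). Against CA1 the highest statistics belonged to Zfp422, Smim22, Spink8, Mrto4 and Olfr1426 and the lowest to Pafah1b3, Rpa3, Ccdc88a, Tgfbr3 and Glt8d2, all with a limma adjusted p of 0.997. Smim22 had a CA3 minus CA1 log2 difference of 0.38 in CSS mice and -0.68 in ctrl mice, and its CSS effect was 1.26 in CA3 and 0.21 in CA1 (SE 0.21). In cortex the CSS effect of Smim22 had the same direction, at 0.46 (SE 0.30) in motor and 0.74 (SE 0.33) in somatosensory cortex. Zfp422, a zinc finger gene, had 0.34 in CSS mice and -0.45 in ctrl mice, without overlap, and this came from CA1, where its CSS effect was -0.71, against 0.08 in CA3.

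Against cortex the highest statistics belonged to Ptgds, Usf1, Poldip2, Pank4 and Igfbp4 and the lowest to Ms4a4b, Snd1, Rlf, Robo4 and Tgfbr3, all with a limma adjusted p of 0.970. Ptgds had a CA3 minus cortex log2 difference of 0.28 to 0.86 in the 6 CSS mice, against -0.48, -0.42, 0.01 and 0.25 in ctrl mice, without overlap. Its CSS effect was 0.91 (SE 0.21) in CA3, 0.83 (SE 0.25) in CA1, 0.16 (SE 0.18) in motor and 0.19 (SE 0.19) in somatosensory cortex. Olig1 had 0.58 in CA3, 0.45 (SE 0.22) in CA1, 0.00 in motor and -0.10 in somatosensory cortex. Other oligodendrocyte genes that were higher in CSS mice in CA3 differed in CA1. There Cldn11 had 0.15 (SE 0.23), Trf 0.21 (SE 0.27), Olig2 -0.37 (SE 0.22) and Enpp6 -0.54 (SE 0.30). Fkbp5 had 0.29 in CA3, 0.34 (SE 0.20) in CA1, -0.29 (SE 0.16) in motor and -0.06 in somatosensory cortex. Npas4, picked after its values were seen, had -0.34 in CA3, -0.75 (SE 0.20) in CA1, -0.46 (SE 0.16) in motor and -0.43 (SE 0.16) in somatosensory cortex. None of these differences between subregions passed the test, nor did the Npas4 effect in any of these subregions.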

How the data were processed

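Expression was measured with GeoMx mouse Whole Transcriptome Atlas probes in 18 CA3 AOIs of 10 mice. The deposited values are a signal per gene, scaled by the authors so that every AOI has 1 common median, judged from the values. The submitters' processing notes name mm10, and the sources used here give no read processing tools. Whole reads were recovered by dividing by each AOI's factor. In each CA3 AOI at least 99.985% of the values were whole to within 0.01, and 3 genes were not.

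CSS and ctrl are different mice, and the mouse was the replicate. Log2(signal + 1) values were centred in p16 high and p16 low AOIs separately, on the value midway between the CSS and ctrl means, and averaged per mouse. The added 1 makes fold changes of genes of low signal smaller. Because of the centring, the printed value of a mouse with 1 AOI differs from that AOI's own signal. Models over all 19962 genes were fitted with limma 3.58.1 in R 4.3.3 (lmFit, eBayes with a trend, 2-sided), with calls at a Benjamini-Hochberg adjusted p under 0.05. Gene-level p-values are unadjusted only where so named. Alternatives included edgeR 4.0.16 and DESeq2 1.42.0 on counts summed per mouse, other scalings, filters, covariates and leaving out each mouse. The code was tested on simulated data. SciPy 1.17.1 gave exact permutation tests of depth and background. The permutation p-values give how often relabelling these mice as CSS or ctrl yields a difference at least as large. The limma SEs, intervals and p-values also draw on the spread of other genes. Of a median 40.4 degrees of freedom, 32.4 were so borrowed. For some genes the printed SE is smaller than the spread of that gene's own mice gives. This holds where 1 mouse stands far apart, as for Ms4a4b and Ankrd1, and also for Smim22, Rgs14 and Sst.

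Members, the 40 gene lists and tests were chosen with earlier results of these data known. Named genes were Cdkn2a, Cdkn1a, Nr3c1, Nr3c2 and Fkbp5, the 15 highest and 15 lowest moderated t among genes above the median signal (since no gene was called), up to 4 members of smallest p per list, and the 5 highest and 5 lowest for each difference between subregions. Other list members are given as examples chosen after their values were seen. Coordinates are from RefSeq, GRCm38.p6, where 99.4% of gene names matched. Probe sequences were not used here.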

Additional observations from a re-analysis of the deposited data

Results flagged for a closer look

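Within the 6 CSS or 4 ctrl mice, 18 values stood apart from their group by Dixon's ratio, of 158 groups examined. The ratio flags about 1 in 20 groups by chance. Most of the genes examined were picked by their values in these same mice, so the 18 cannot be set against that rate. All values here are log2(signal + 1) per mouse.

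Ctrl mouse 1182, which had 1 AOI, was the highest ctrl mouse for Ms4a4b at 7.63 (next 4.38), Trib3 at 7.74 (next 4.15), Ankrd1 at 8.58 (next 3.82) and Glt8d2 at 5.59 (next 4.64), and the lowest for Olfr1426 at 2.92 (next 4.16), Galntl6 at 3.18 (next 4.42) and Hgf at 2.65 (next 3.91). CSS mouse 1163, which also had 1 AOI, was the highest CSS mouse for Riok1 at 9.27 (next 4.95) and Pou3f1 at 6.29 (next 4.59), and the lowest for Trib3 at 2.06 (next 3.35), Tbc1d20 at 3.41 (next 4.38) and Csf2 at 2.53 (next 4.02). Without mouse 1182 the log2 difference, CSS minus ctrl, was 0.46 for Olfr1426, 0.34 for Galntl6 and -0.38 for Glt8d2, against 0.77, 0.65 and -0.62 with it.

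Among the other CSS mice, mouse 1152 was the lowest for Ptgds at 6.22 (next 6.92), mouse 1170 the highest for Olfr1426 at 5.55 (next 4.68) and the lowest for Ttr at 3.23 (next 6.86), and mouse 1169 the lowest for Tac1 at 3.15 (next 4.06). Ctrl mouse 1175 was the lowest ctrl mouse for Pafah1b3 at 4.21 (next 4.89) and Dusp5 at 5.16 (next 6.02).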

How the results depend on the processing

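Calls in CA3 numbered 0 with limma, against 4 among genes above the median signal (Smim22, Gm11596, Ms4a4b, Trib3), 2 above the negative probe, 2 after 75th percentile scaling, 1 after quantile normalization, 9 with edgeR, 7 with edgeR and DESeq2 size factors, 1 in p16 low AOIs, and 0 to 1 over the leave-one-out fits (Smim22 without CSS mouse 1152). The mean signals that put Ms4a4b and Trib3 above the median, 25.8 and 26.0, include 216 and 258 in the only AOI of ctrl mouse 1182. The negative probe filter asked for every mouse of at least 1 group, so a gene could enter through ctrl mice alone. Whether these calls hold in the filtered sets without that AOI was not tested. A fit over single AOIs in which mouse was a random replicate block called 0 genes in limma, 346 at an unadjusted p under 0.05. CSS and ctrl are different mice, so no pairing exists. DESeq2, no centring, a pseudocount of 10 and the covariates also gave 0 calls. The CA1 and cortex contrasts gave 0 in each setting run. In p16 high AOIs the sign turned for Spink8 (-0.0879), Rgs14 (-0.0899), Cdkn1a (0.13), Fkbp5 (-0.0421), Zbtb16 (-0.14), Pcp4 (-0.12), Amigo2 (-0.20), Sst (0.12), Dusp5 (-0.0716), Igfbp4 (-0.20) and Ankrd1 (0.23), and in p16 low AOIs for Riok1 (-0.034). Cdkn2a was 0.0509 with signal over the negative probe and 0.0504 with total counts as covariate, and Nr3c1 was 0.0003 without centring and 0.0612 with counts. Leaving out 1 mouse gave -0.15 to 0.0781 for Cdkn2a, -0.19 to 0.0397 for Cdkn1a, -0.19 to 0.12 for Nr3c1, -0.13 to 0.32 for Nr3c2 and -0.0234 to 0.85 for Pcp4, and the difference in 75th percentile signal ran from -1.86 to 3.75. Ankrd1 ran from -1.48 without ctrl mouse 1151 to 0.26 without ctrl mouse 1182. Of settings added after seeing the data, leaving out mice 1163 and 1175 gave -0.0907 for Nr3c2, -0.075 for Fkbp5, -0.0648 for Pcp4, -0.0071 for Amigo2 and -0.0285 for Stard5, and keeping mice with both AOIs gave -0.0116 for Enpp2 and 0.24 for Ankrd1. The cause of these changes was not tested. Over 76 genes, 1968 of 2028 values kept direction and call. Low counts limit genes near the negative probe.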

Other observations

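Values carried by 1 AOI were not limited to the genes described above. In 44 genes the highest CA3 AOI had at least 3 times the signal of the next and at least 3 times the common median. Of these, 14 peaked in the p16 high AOI of CSS mouse 1163, 7 in the p16 high and 5 in the p16 low AOI of CSS mouse 1170, and 9 in the p16 low AOI of ctrl mouse 1182. None peaked in an AOI of CSS mouse 1152 or of ctrl mice 1151, 1168 and 1175. The AOIs of mice 1163, 1170 and 1182 were among the shallowest, with 362437, 299597, 377620 and 367684 counts, although the p16 high AOI of CSS mouse 1169, with 324250 counts, held 2 such genes.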
